A study of Homo sapiens with 2 samples.

Results

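Cells that carried the antibody tag called hashtag 2 were ordered by the balance between vimentin and 4 epithelial transcripts, and the upper and the lower range of that order were compared across all other genes. The order is V, the UMIs (counted molecules) of VIM divided by the UMIs of VIM, KRT5, KRT17, S100A14 and SFN together, computed in each cell with at least 5 such UMIs. A cell belonged to hashtag 2 where that tag had at least 150 UMIs and at least 10 times those of the next tag. Of 10336 barcodes in the series, 2010 did so. Of these, 49 had fewer than 500 genes and 76 more than 20% mitochondrial UMIs. The 84 that failed either limit were dropped, and 5 of the 1926 kept had too few score UMIs, which left 1921. V was above 0.5 in 914 cells and at most 0.5 in 1007.

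The series holds HMLER cells, human mammary epithelial cells that were immortalised and transformed with RAS, and its lines derive from C1, an epithelial clone of HMLER. The labels name 3 lines and tie a tag to each: C1-sgControl with a control guide to hashtag 1, C1-sgEED with EED knocked out to hashtag 3 and C1-sgKMT2D with KMT2D knocked out to hashtag 4. They name no line for hashtag 2, so its genotype is unknown here and no line is inferred from its expression. All cells were kept in medium with insulin, EGF and hydrocortisone, and were read together as 1 gene expression library with 1 hashtag library on the 10x Genomics 3' platform. The library titles speak of mixed clones, the number of clones is not given, and a mix of clones and cells that changed state cannot be told apart.

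The epithelial-to-mesenchymal transition is a programme in which cells give up cell-cell junctions, keratins and hemidesmosomes and take up vimentin, collagens and other matrix genes. Transcription factors of the ZEB, SNAI and TWIST families are known to drive it, and ZEB and SNAI proteins repress epithelial genes through E-boxes, short DNA motifs, in their promoters. Many carcinoma cells hold parts of both programmes at once.

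All cells are from 1 library, so a range of V has no replicate. The members were chosen by the measured levels of the 5 score genes, and every gene read in the same cells counts as used by that choice. No test was therefore made, and no p-value is given. Levels are UMIs summed over the cells of a range and given as CPM, with all gene UMIs of that range as the total. Intervals are at 95% and cover counting error only: exact Poisson for levels, Clopper-Pearson for shares of cells and exact conditional binomial for ratios. Log2 ratios were taken after adding 1 CPM to both levels.

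Promoters of 3 genes from the low end of the comparison and 1 from the high end show the letters that the ranges can be read against. RAB25, LAD1 and MAPK13 are among the 15 genes with the lowest level in cells above V 0.5 relative to the others, and COL6A2 is among the 15 with the highest. Each window runs from 250 bases before the transcription start to 50 bases from it, 5′ to 3′ on the gene's own strand, from RefSeq on GRCh38.p14. Capitals mark the E-box CAGGTG, or CACCTG, which is the same motif read on the other strand. The windows lie at chr1:156060910-156061209 (plus strand) for RAB25, chr1:201399275-201399574 (minus) for LAD1, chr6:36130263-36130562 (plus) for MAPK13 and chr21:46097862-46098161 (plus) for COL6A2.
RAB25: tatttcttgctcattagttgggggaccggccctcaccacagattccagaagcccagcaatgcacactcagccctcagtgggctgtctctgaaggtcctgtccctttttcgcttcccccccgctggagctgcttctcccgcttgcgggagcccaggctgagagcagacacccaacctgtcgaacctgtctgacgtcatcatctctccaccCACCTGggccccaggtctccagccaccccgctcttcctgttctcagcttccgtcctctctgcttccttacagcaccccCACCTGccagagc
LAD1: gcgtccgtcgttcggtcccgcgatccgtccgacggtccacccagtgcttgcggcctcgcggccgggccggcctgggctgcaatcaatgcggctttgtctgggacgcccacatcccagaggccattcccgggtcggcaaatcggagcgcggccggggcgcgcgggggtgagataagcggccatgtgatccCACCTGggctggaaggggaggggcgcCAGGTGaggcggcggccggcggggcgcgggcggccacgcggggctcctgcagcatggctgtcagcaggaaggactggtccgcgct
MAPK13: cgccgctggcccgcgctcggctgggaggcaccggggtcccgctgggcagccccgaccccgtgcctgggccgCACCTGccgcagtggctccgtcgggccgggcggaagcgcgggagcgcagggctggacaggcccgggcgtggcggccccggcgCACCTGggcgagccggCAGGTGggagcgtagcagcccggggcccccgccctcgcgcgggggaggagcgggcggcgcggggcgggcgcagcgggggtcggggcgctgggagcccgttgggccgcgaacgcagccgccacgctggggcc
COL6A2: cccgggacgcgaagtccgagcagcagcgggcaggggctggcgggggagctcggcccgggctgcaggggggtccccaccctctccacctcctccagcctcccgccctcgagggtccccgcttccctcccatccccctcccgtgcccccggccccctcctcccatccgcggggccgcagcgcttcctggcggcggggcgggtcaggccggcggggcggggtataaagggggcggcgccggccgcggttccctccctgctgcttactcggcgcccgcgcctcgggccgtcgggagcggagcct

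With 0 at the transcription start, the E-boxes began at positions -41 and 37 in RAB25, at -61 and -35 in LAD1 and at -179, -97 and -81 in MAPK13. The COL6A2 window held none. Of the 15 lowest genes, 9 had a promoter in the RefSeq table and 7 of these held an E-box. Of the 15 highest, 8 had one and 0 held an E-box. Over all 27305 genes of the table the share with an E-box was 24.1%, and over the 3798 matched genes of at least 20 CPM in either range it was 21.7%. It was 36.4% of the 187 matched genes at least 2-fold lower and 23.8% of the 80 at least 2-fold higher. The AP-1 motif TGANTCA, which reads the same on both strands and whose outer letters CA or TG an E-box can share, was in 9.37% of all genes of the table, in 6.53% of the genes of at least 20 CPM, in 13.4% of the genes lower and in 6.25% of those higher. These are matches of letters, and binding was not measured.

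V was spread over its whole range within hashtag 2. Its median was 0.462, its quartiles were 0.179 and 0.808, and its SD over cells was 0.322. V was 0 in 20 cells and 1 in 20. The share above 0.5 was 47.6% (45.3 to 49.8). Within 0.1 of the bound lay 176 cells, or 9.16%. The ranges are cuts of a per-cell score and are not called cell types here. In 5 equal intervals of the scale, V from 0 to 0.2 held 547 cells, 0.2 to 0.4 held 373, 0.4 to 0.6 held 168, 0.6 to 0.8 held 342 and 0.8 to 1 held 491.

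The same count under the other tags gave 0 of 1713 cells above 0.5 for C1-sgControl, where the highest V was 0.4375. The 0 allows a share of up to 0.175% by 3 counts of the total and 0.215% by the Clopper-Pearson interval. Cells above 0.5 were 1064 of 2316 (45.9%, 43.9 to 48.0) for C1-sgEED and 947 of 2307 (41.0%, 39.0 to 43.1) for C1-sgKMT2D. Cells within 0.1 of the bound were 1.68% in C1-sgEED and 9.71% in C1-sgKMT2D. Each tag is 1 sample, so none of these differences has a replicate check.

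**Figure D1:**
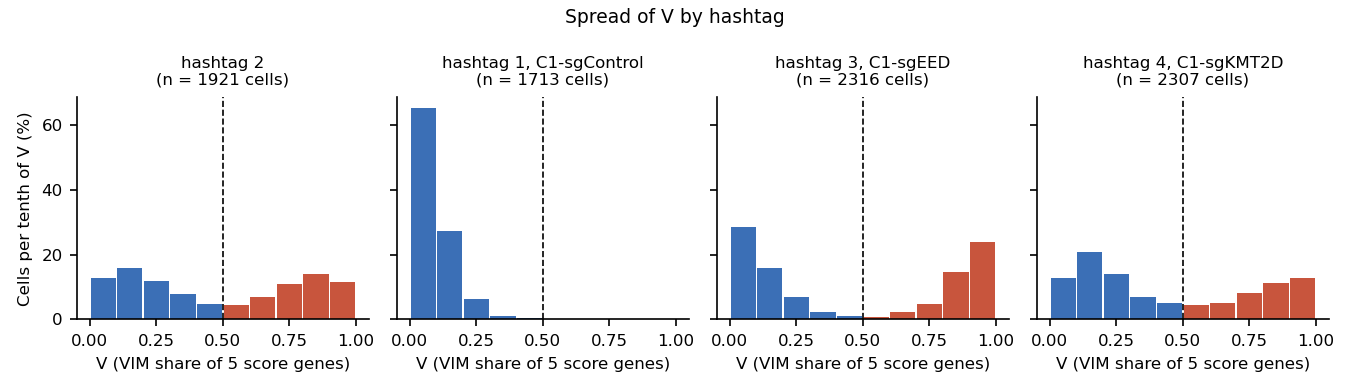
Percentage of cells (vertical axis) in each step of 0.1 in V (horizontal axis, VIM share of the UMIs of the 5 score genes) for hashtag 2 and the 3 tags with a line in the labels; red bars lie above 0.5, blue bars at or under it, and the dashed line is the bound. Hashtag 2 has cells in every step, and C1-sgControl has none above 0.5.

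Depth moved with V. Cells above 0.5 had a median of 4078.5 UMIs and 1395.5 genes, against 6437 UMIs and 1981 genes at or under it. Hashtag UMIs were alike, with medians of 1821.5 and 1827, and the median mitochondrial share was 7.79% against 6.29%. The share of cells above 0.5 was 47.4% among cells of at least 2000 UMIs, 31.9% (29.03 to 34.9) among the 1003 cells of at least 5000 and 22.5% (17.0 to 28.9) among the 204 cells of at least 10000. The part of depth in the share was not tested. Thinned to 2000 UMIs, cells had a median of 856 genes above 0.5 and 892 at or under it. The summed counts of the ranges were 4391576 and 6901464 gene UMIs.

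The markers given for the comparison followed V. KRT14, a keratin of basal epithelium (chromosome 17, 41582279 to 41586921, minus strand), was at 529 CPM above 0.5 and 3602 CPM at or under it. COL1A1, a chain of type I collagen (chromosome 17, 50183289 to 50201632, minus strand), was at 163 CPM against 19.1. SPARC, a collagen-binding matrix protein, was at 222 CPM against 78.4. After thinning to 2000 UMIs, SPARC turned up in 35.2% of hashtag 2 cells above 0.5, 14.9% of the rest and 19.0% of C1-sgControl cells. The upper and lower ranges had 53.2% and 22.4% under the C1-sgEED tag, and 17.6% and 5.28% under the C1-sgKMT2D tag. These differences between tags were not tested. A cell-by-cell description used 74 epithelial and 69 mesenchymal list genes that are not in the score. The lists were chosen with earlier results of these data known, so it is no independent check of the ranges. In cells thinned to 2000 UMIs the epithelial genes had a median of 14 UMIs per cell above 0.5 (quartiles 9 and 21) and 82 at or under it (62 and 105). The mesenchymal genes had 11 (7 and 16) and 6.5 (4 and 9). The mesenchymal share of these UMIs had a median of 44.0% above 0.5 and 7.09% at or under it.

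Cells above 0.5 thus held epithelial as well as mesenchymal list UMIs, and they are called by their range of V here. The epithelial median of 14 was also that of C1-sgEED cells above 0.5, and C1-sgKMT2D cells above 0.5 had 9. The mesenchymal median of 11 was below the 25 of C1-sgEED and the 16 of C1-sgKMT2D in that range, and was also the median of all C1-sgControl cells. The part of free RNA in these UMIs was not tested. By the mesenchymal share, cells above 0.5 of C1-sgEED had a median of 64.7% and those of C1-sgKMT2D 65.5%, and all C1-sgControl cells 12.7%. Over the 5 intervals of V the median share in hashtag 2 was 6.12%, 8.07%, 23.9%, 37.8% and 50.0%. Only 24 of 974 cells at or under 0.5 reached the median of those above it, and 14 of 878 cells above 0.5 were at or under the median of the lower range. The middle interval had the quartiles 10.9% and 42.9%. Whether it mixes cells of low and high share or holds intermediate cells was not tested. Scrublet, a caller of doublets, marked 12 of its 168 cells (7.14%), 15 of 914 cells above 0.5 and 64 of 1007 at or under it.

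**Figure D2:**
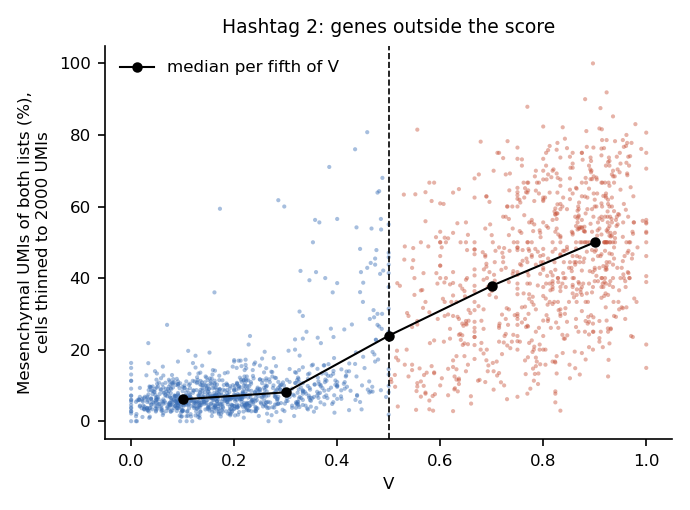
Mesenchymal share (vertical axis, percent of epithelial and mesenchymal list UMIs, cells thinned to 2000 UMIs, score genes left out) against V (horizontal axis) for each hashtag 2 cell; black points are medians per interval of V. The medians lie at 6.12% and 8.07% in the lowest intervals and at 50.0% in the highest, and the cloud is wide above 0.5.

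Most markers of other cell types were at or near 0 in both ranges. Of 12 immune markers 9 had 0 UMIs in all hashtag 2 cells, among them PTPRC, CD3E, MS4A1 and LYZ, and only CD68 reached 10 CPM. Of 10 endothelial markers 5 had 0 UMIs, CDH5 and KDR included, and none reached 10 CPM. The summed immune level was 32.3 CPM above 0.5 and 21.3 CPM at or under it, the endothelial 5.92 and 4.35, the neural 29.8 and 45.6, and that of adipocyte, muscle and pericyte markers 18.7 and 15.2. The neural sum was mostly MBP, at 17.1 and 23.3 CPM, and NEFL, at 12.1 and 21.4 CPM, while SOX10, GFAP and SNAP25 were at 0. In the last list NOTCH3 was at 12.1 and 9.85 CPM and ADIPOQ and MYOD1 at 0.

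Between the ranges, most measured genes of the collagen list and 7 of 15 other matrix genes were higher above V 0.5, and most genes of junctions, hemidesmosomes and basal identity were lower. Of 4831 genes of at least 20 CPM in either range, 117 (2.42%) were at least 2-fold higher and 266 (5.51%) at least 2-fold lower above 0.5. The median log2 ratio of these genes was 0.00. The score genes are left out of all these counts. The 15 highest ratios ran from COL3A1 to PTX3, and the 15 lowest from RAB25 to MAPK13.

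Collagens led the high end. COL3A1, the chain of type III collagen (chromosome 2, 188974320 to 189012746, plus strand), had 107 UMIs above 0.5 and 5 at or under it, or 24.4 CPM against 0.724, a ratio of 33.6 (13.97 to 106). COL6A2 and COL6A1, chains of the beaded type VI collagen that lie near each other on chromosome 21, were at 122 CPM against 8.55 and at 116 CPM against 8.84. COL1A1 was 8.54-fold higher (7.08 to 10.4). COL4A1 and COL4A2, chains of basement membrane collagen, were at 89.9 CPM against 26.8 and at 88.1 CPM against 35.2. Of the 15 genes of the collagen list, 7 were measured, which means at least 10 CPM in either range. In all, 6 of these 7 were at least 2-fold higher, with a median log2 ratio of 3.03. All 7067 genes of at least 10 CPM had a median of -0.0039, with 2.86% higher and 5.5% lower. COL3A1, COL6A1 and COL6A2 reached 10 CPM only above 0.5, so this filter partly sets the count and the median. The other lists have the same limit. The exception in the list was COL7A1, the anchoring fibril collagen of stratified epithelium, at 15.9 CPM against 42.0. COL17A1, a collagen of the hemidesmosome that is counted with that list, was also lower, at 9.34 CPM against 88.0. COL1A2, the partner of COL1A1 in type I collagen, stayed under 10 CPM, with 27 UMIs above 0.5 and 1 at or under it.

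Other matrix genes were mixed. Of 15 measured, 7 were at least 2-fold higher and 1 lower, with a median of 0.72. FBLN5, which binds elastic fibres, was at 71.0 CPM above 0.5 and 6.09 CPM at or under it. TNFAIP6 and PTX3, inflammation-induced proteins of the hyaluronan matrix, were at 37.8 CPM against 3.48 and at 45.8 CPM against 5.07. The crosslinking enzymes LOX and LOXL1 were at 34.8 against 9.27 CPM and 28.5 against 8.55 CPM. FN1, fibronectin, was at 1485 CPM against 1198, a ratio of 1.24, although it is a common mark of mesenchymal cells. THBS1, thrombospondin, was lower, at 40.1 CPM against 94.3. DPT, a dermal matrix protein outside the list, was at 30.3 CPM against 1.88.

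Among 14 mesenchymal membrane, cytoskeleton and signalling genes, 5 were at least 2-fold higher and 0 lower, with a median of 0.35. THY1, a surface protein of fibroblasts, was at 81.5 CPM against 7.68, a ratio of 10.6 (7.94 to 14.5). Among thinned cells, 13.4% above 0.5 and 1.64% of the rest held a THY1 UMI, while 9.41% of C1-sgControl cells did. C1-sgEED gave 52.6% and 19.5% for its upper and lower range, C1-sgKMT2D 10% and 5.05%. Of these shares the lower range of hashtag 2 had the lowest, and the differences between tags were not tested. CDH2, N-cadherin, had 55 UMIs above 0.5 and 4 at or under it (12.5 against 0.580 CPM). CADM3, a cell adhesion molecule, was at 44.9 CPM against 2.90, S100A4 at 367 CPM against 94.2 and NNMT at 449 CPM against 147. CADM3 overlaps ACKR1 on the same strand, so reads of the pair can be mixed. AXL, TPM1 and CD44 differed little, with log2 ratios of 0.07, -0.06 and -0.23. Other genes among the 15 highest were CYP1B1, a cytochrome that metabolises oestrogen (44.4 against 3.19 CPM), SRGN, the core protein of a secreted proteoglycan (43.5 against 4.06 CPM), GGT5 (27.1 against 2.32 CPM) and CCDC102B (26.0 against 2.17 CPM).

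**Figure D3:**
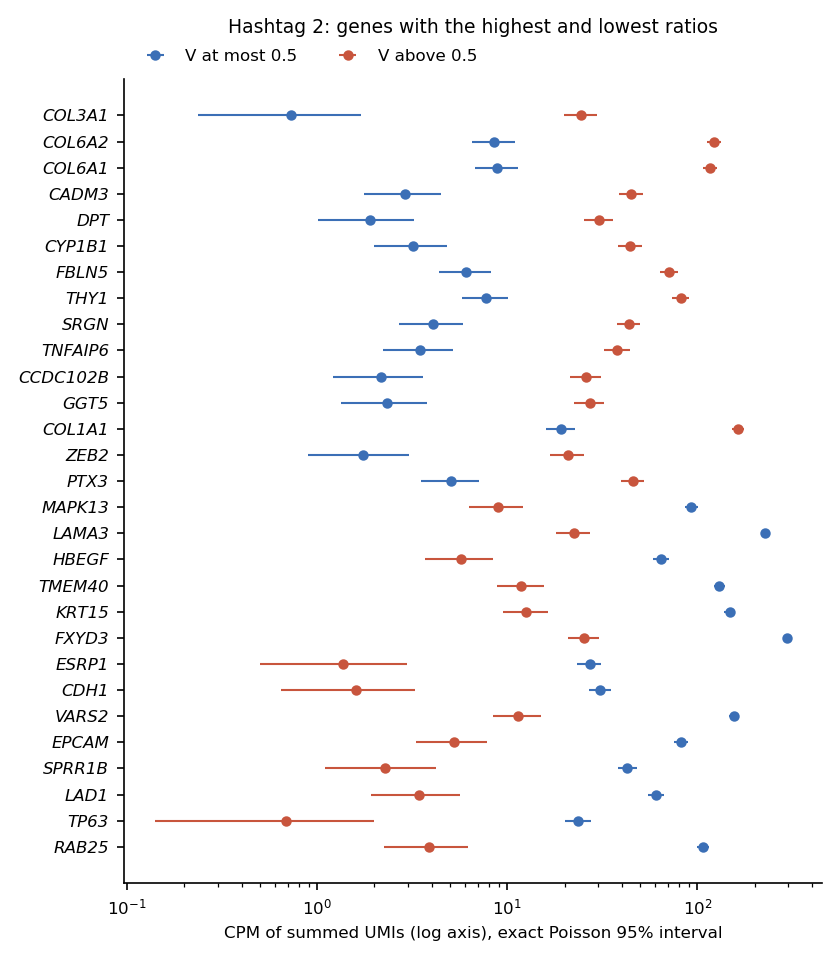
CPM of summed UMIs (horizontal log axis) in hashtag 2 cells with V above 0.5 (red) and at most 0.5 (blue) for 29 genes at the ends of the ratio order, 15 from the high end and 14 from the low end; bars are exact Poisson 95% intervals that cover counting error only. The intervals of the ranges do not overlap for any of the 29 genes, which were chosen for this difference.

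The transition factors moved in both directions. Of 11 measured, 4 were at least 2-fold higher, 2 were lower and the median was 0.30. ZEB1 was at 22.8 CPM above 0.5 and 2.46 CPM at or under it, ZEB2 at 20.7 against 1.74 CPM, TWIST1 at 23.9 against 5.22 CPM and FOXC2 at 34.6 against 3.91 CPM. SNAI2, the repressor SLUG, went the other way, at 27.1 CPM against 111, which is 4.11-fold lower (3.38 to 5.02), and so did SOX9, at 9.56 against 36.1 CPM. SNAI2 and SOX9 are also found in basal mammary epithelium. In thinned cells a ZEB1 UMI was seen in 4.90% (3.57 to 6.54) of cells above 0.5 and 0.616% of the others, and in 0.183% of C1-sgControl cells. The median depth of C1-sgControl cells before thinning was 5699 UMIs.

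Epithelial genes were lower above 0.5 almost throughout the lists. All 6 measured basal keratins and identity genes, all 8 genes of the hemidesmosome and its laminin and all 4 epithelial transcription factors and splicing regulators were at least 2-fold lower, with medians of -3.00, -2.70 and -2.05. So were 15 of 18 junction genes (median -2.04) and 14 of 16 other epithelial genes (median -2.22). The members that did not reach 2-fold were the junction genes DSG2, CDCP1 and TJP1 and the keratins KRT8 and KRT7, with log2 ratios of -0.22, -0.35, -0.37, -0.24 and -0.87. The simple keratins KRT8 (216 against 255 CPM) and KRT7 (846 against 1550 CPM) thus stayed abundant above 0.5. KRT18, their usual partner, was at 530 CPM against 1102.

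TP63, the master regulator of basal epithelium (chromosome 3, 189631416 to 189897279, plus strand), had 3 UMIs above 0.5 and 163 at or under it, or 0.683 against 23.6 CPM. KRT6A was at 382 CPM against 2953 and KRT15 at 12.5 CPM against 148. The laminin chains LAMA3 and LAMB3 were at 22.3 against 227 and 79.5 against 656 CPM. Their receptor chains ITGB4 and ITGA6 were at 21.4 against 187 and 40.1 against 156 CPM.

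Among the junction genes, EPCAM (chromosome 2, 47345158 to 47387601, plus strand) was at 5.24 CPM above 0.5 and 81.7 CPM at or under it, 15.6-fold lower (10.3 to 24.8). CDH1, E-cadherin, had 7 UMIs against 213, or 1.59 against 30.9 CPM. The desmosomal genes DSP and JUP were at 48.7 against 229 and 21.0 against 85.3 CPM. RAB25, a small GTPase of epithelial membrane traffic (chromosome 1, 156061160 to 156070514, plus strand), had the lowest ratio, at 3.87 CPM against 107, which is 27.7-fold lower (17.2 to 47.9). LAD1, a basement membrane protein, was at 3.42 against 60.6 CPM and FXYD3, a sodium pump regulator, at 25.3 against 295 CPM. LAD1 and FXYD3 each overlap another gene model on the same strand. ESRP1, a splicing regulator of epithelial cells, was at 1.37 CPM against 27.1. MAPK13, a p38 kinase, was at 8.88 CPM against 92.7.

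Along V the genes changed in steps that were not the same for all. The 15 highest and 15 lowest genes were chosen for their ratio between ranges of V in these same cells. A trend along V is therefore partly built in, and the share of all genes with such a trend is not given here. In each of the 15 highest genes the level was higher in every interval of V than in the one below it. COL1A1 was at 10.99, 19.9, 82.2, 145 and 186 CPM from the lowest interval to the highest, and COL6A2 at 3.93, 8.98, 49.5, 95.2 and 149 CPM. Of the 15 lowest genes 8 were lower at every step. KRT14, outside those 15, was at 4194, 3101, 1699, 753 and 207 CPM. EPCAM was at 93.7, 73.4, 25.9, 5.04 and 4.11 CPM. LAMB3 was at 688, 664, 330, 85.7 and 48.5 CPM, with overlapping counting intervals in the lowest intervals (662 to 715 and 633 to 697).

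Just under the bound, 87 cells with V above 0.4 had COL1A1 at 75.3 CPM, KRT14 at 1711 CPM and EPCAM at 34.8 CPM. Just above it, 81 cells with V up to 0.6 had 91.7, 1683 and 13.5 CPM. For COL1A1 and KRT14 the counting intervals of these neighbours overlapped, as they also did for EPCAM (20.6 to 54.9 and 4.38 to 31.5). For KRT6A they did not, at 1452 CPM (1350 to 1560) under the bound and 990 CPM (891 to 1097) above it.

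**Figure D4:**
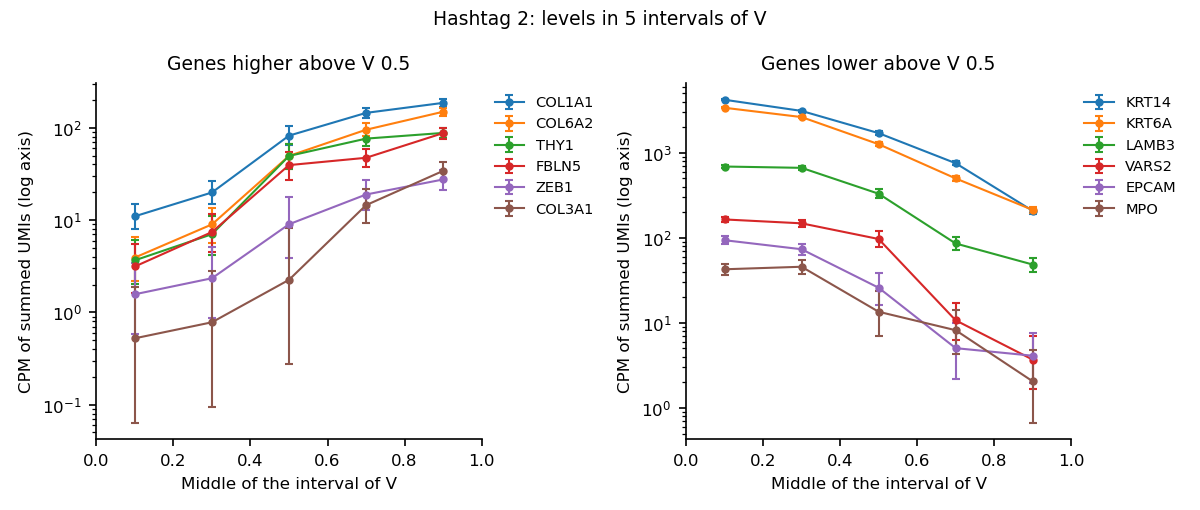
CPM of summed UMIs (vertical log axis) in 5 equal intervals of V (horizontal axis, middle of the interval) in hashtag 2 for 6 genes higher (left) and 6 lower (right) above 0.5; bars are exact Poisson 95% intervals for counting error. The left lines climb from interval to interval, and on the right VARS2 stays near 150 CPM over the lower intervals and reaches 3.70 CPM in the highest. The genes shown differ between the ranges of these same cells, so a trend along V is partly built in.

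Cytokine genes went in both directions. Of 19 measured cytokines and NF-kB targets, 8 were at least 2-fold higher, 5 lower and the median was 0.07. IL6 was at 19.8 CPM above 0.5 and 1.59 CPM at or under it, the neutrophil chemokine CXCL1 at 160 against 38.8 CPM, the growth factor gene CSF3 at 46.2 against 15.5 CPM, and SOD2, a mitochondrial superoxide dismutase, at 985 against 244 CPM. LTB, a lymphotoxin, was lower, at 16.4 against 136 CPM. IL1A was at 12.8 against 58.8 CPM and CSF2 at 5.24 against 23.6 CPM. TNFAIP3, a brake on NF-kB, was at 48.7 against 111 CPM. CXCL1, CXCL2 and CXCL3 are close copies of each other, and their single levels are uncertain. The same list had a median of -1.10 in C1-sgEED (1 higher, 10 lower) and 1.49 in C1-sgKMT2D (12 higher, 2 lower). These counts kept the list members measured in hashtag 2. Among all genes of at least 10 CPM in the line itself, which is another filter, 5.51% were higher and 8.75% lower in C1-sgEED. In C1-sgKMT2D 3.55% were higher and 4.54% lower.

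Of 8 acute-phase and antimicrobial genes, 5 were higher, 1 was lower and the median was 1.11, which came to 0.97 when genes down to 1 CPM were counted. Over the members measured in hashtag 2, the list had a median of -2.34 in C1-sgEED (3 higher, 5 lower) and 1.37 in C1-sgKMT2D (5 higher, 1 lower). The acute-phase protein SAA1 was at 828 CPM above 0.5 and 370 CPM at or under it, and SAA2, a close copy of it, at 89.9 against 28.0 CPM. An SAA1 UMI was seen in 60.1% of thinned cells above 0.5, 38.4% of the others and 65.3% of C1-sgControl cells. The complement genes C1R and C3 were at 31.2 against 5.80 CPM and 51.7 against 24.3 CPM. SLPI, a protease inhibitor of epithelial secretions, was lower, at 31.4 against 68.5 CPM. Among interferon-responsive genes 4 of 9 were higher and 1 lower (median 0.64): BST2 at 13.2 against 0.724 CPM, IFITM2 at 101.8 against 15.4 CPM, IFI6 and IFITM3 higher, and OAS3 at 4.33 against 11.7 CPM. None of 10 MHC class I and peptide loading genes reached 2-fold (median 0.55).

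Growth factor genes went in both directions. Of 6 genes of the EGF receptor family and its ligands 4 were lower and 0 higher, with a median of -1.70 that came to -0.84 among genes of at least 50 CPM. EGFR was at 25.05 CPM above 0.5 and 73.3 CPM at or under it, HBEGF at 5.69 against 64.5 CPM and TGFA at 2.05 against 18.0 CPM. AREG, amphiregulin, hardly differed, at 1524 against 1715 CPM. In the TGF-beta and BMP pathway 2 of 16 genes were higher and 2 lower (median 0.13). INHBA, an activin subunit, was at 54.0 against 335 CPM and its antagonist FST at 1.14 against 12.0 CPM, while CTGF was at 56.0 against 17.1 CPM. IGFBP4, which binds insulin-like growth factors, was at 47.8 against 8.98 CPM, the 1 of 5 genes of its list past 2-fold.

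No G2/M gene of 33 reached 2-fold (median 0.48), and of 25 G1/S genes only TYMS did, at 141 against 60.6 CPM (median 0.26). Thinned cells had a median of 1 G1/S UMI and 2 G2/M UMIs in both ranges. None of 16 stress genes (median -0.41) or 14 genes of the unfolded protein response (median 0.06) passed 2-fold. Of 21 hypoxia and glycolysis genes 3 were lower, namely NDRG1 at 125 against 676 CPM, VEGFA at 19.1 against 83.2 CPM and SLC2A1 at 13.7 against 28.7 CPM (median -0.06). Of 14 PRC2 and KMT2D complex genes JARID2 was lower, at 15.3 against 34.9 CPM, and the rest did not reach 2-fold (median 0.02). Proteases and inhibitors had 1 of 9 higher and 3 lower (median -0.55), with the plasminogen activator PLAU at 63.3 against 219 CPM. Of 4 squamous genes 3 were lower, SPRR1B at 2.28 against 42.7 CPM among them. The median of -2.27 rests on 4 genes and came to -0.07 on means over cells. Of 5 metallothioneins MT1X was higher, at 613 against 244 CPM (median 0.24). Of 14 surface markers of mammary states THY1 and the neutral endopeptidase MME (57.4 against 6.67 CPM) were higher and 5 lower, CD24 at 13.9 against 120 CPM included (median -0.37). C3, SLPI, TNFAIP3, TYMS, SLC2A1, IL32 and CYR61 are near 2-fold and came under it in at least 1 other way of processing.

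Cells of the same range also differed among themselves. In cells thinned to 2000 UMIs the variance of a gene's UMIs over its mean, which is near 1 for counting error alone, had a median of 1.02 over 6403 genes above 0.5 and 1.02 over 6630 at or under it. FTH1, the ferritin heavy chain, had the highest value in both ranges (20.5 and 17.7), with medians of 51.5 and 17 UMIs per cell. S100A2, a calcium-binding protein of basal epithelium, was at 9.52 above 0.5, where its median was 8 UMIs per cell, and at 10.5 at or under it, where its median was 53. ISG15, an interferon-induced protein, was above 0.5 at 6.91 and seen in 9.45% of cells, with up to 26 UMIs in a cell. GDF15, a stress cytokine, was at 5.59 and seen in 9.68%. KRT16, a keratin of stressed epithelium, was at 5.59 at or under 0.5 and seen in 19.5% of cells. A high mean can raise this value, which was not adjusted for level. Above 0.5 the mean was 58.1 UMIs per cell for FTH1 and 0.157 for ISG15.

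COL1A1 was seen in 23.2% (20.5 to 26.2) of thinned cells above 0.5 and in 5.13% of those at or under it, or in 37.9% and 9.33% without thinning. In C1-sgControl cells, which share the library and its free RNA, the thinned share was 2.93%. Above 0.5, COL6A2 was seen in 33.3% (26.9 to 40.3) of the 204 cells with a COL1A1 UMI and in 17.8% (14.99 to 20.9) of the 674 without. For PTX3 (8.33% and 6.53%) and KRT14 (33.8% and 40.1%) the intervals of the same groups of cells overlapped. COL1A1 and COL6A2 both rose with V within this range, and the part of V in their pairing was not tested. KRT14 was seen in 38.6% (35.4 to 41.9) of thinned cells above 0.5, against 88.5% at or under it. TP63 was seen in 0 of 878 thinned cells above 0.5 and in 3.90% of the others. The 0 allows a share of up to 0.342% by 3 counts of the total and 0.419% by the Clopper-Pearson interval.

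The same contrast was made in the lines that have cells on both sides of 0.5. They share no cells with hashtag 2 but do share the library. Over genes of at least 20 CPM in both, the log2 ratios of hashtag 2 had a Pearson r of 0.715 with those of C1-sgEED (4618 genes, Spearman rho 0.501) and of 0.845 with those of C1-sgKMT2D (4508 genes, rho 0.681). These are correlations across genes, which are not independent replicates. Over 230 genes of chromosome 5, which holds SPARC, the median log2 ratio was 0.399 in C1-sgEED. It was 0.034 in hashtag 2 and 0.025 in C1-sgKMT2D. The part of this shift in the correlations was not tested. In C1-sgEED 5.57% of 5640 genes were at least 2-fold higher and 7.43% lower, and in C1-sgKMT2D 3.29% of 5142 genes were higher and 4.43% lower. Genes higher in hashtag 2 and in C1-sgEED numbered 47, which is 50.0% of the 94 of hashtag 2 and 32.0% of the 147 of C1-sgEED. With C1-sgKMT2D they numbered 66, which is 68.8% of 96 and 61.7% of 107. Genes lower in both were 165 with C1-sgEED (70.5% of 234 and 50.2% of 329) and 161 with C1-sgKMT2D (73.2% of 220 and 80.1% of 201).

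Of the 15 highest genes, C1-sgEED had 15 and C1-sgKMT2D 14 past 2-fold the same way. Of the 15 lowest, they had 13 and 14. Their sizes still differed between the tags. PTX3 was at 45.8 CPM above 0.5 in hashtag 2, while C1-sgEED had 890 CPM and C1-sgKMT2D 110 CPM. COL3A1 was at 24.4, 177 and 165 CPM under these tags. TNFAIP6 was at 37.8, 5.69 and 188 CPM in the same order. MGP and DCN, matrix proteins of many fibroblasts, were at 647 and 36.9 CPM above 0.5 in C1-sgEED and at 37.8 and 140 CPM in C1-sgKMT2D. In hashtag 2 they stayed low, at 3.19 CPM (14 UMIs) and 1.14 CPM (5 UMIs).

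COL1A1 and KRT14 differed in level between the tags, each of which is 1 sample. Above 0.5 COL1A1 was at 163 CPM, against 70.8 CPM for C1-sgEED. C1-sgKMT2D had 12.2 CPM above 0.5, and its lower range had 10.2 CPM (log2 ratio 0.24). C1-sgControl had 14.2 CPM. KRT14 above 0.5 was at 529 CPM in hashtag 2 and at 60.7 and 70.6 CPM in C1-sgEED and C1-sgKMT2D, and at or under 0.5 at 3602, 560 and 638 CPM. The share of thinned cells above 0.5 with a KRT14 UMI was 38.6% in hashtag 2, 11.4% in C1-sgEED and 10.8% in C1-sgKMT2D, at median depths of 4078.5, 3394.5 and 4407 UMIs. At or under 0.5 it was 88.5%, 41.6% and 40.2% in the same order, and 67.4% in C1-sgControl. The keratin ratio was nonetheless of like size under the 3 tags, with log2 values of -2.77, -3.18 and -3.16.

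VARS2, a mitochondrial valyl-tRNA synthetase (chromosome 6, 30908242 to 30926459, plus strand), was the gene of the lowest 15 whose log2 ratio, with 1 CPM added, reached 2-fold in neither of these lines (-0.93 in C1-sgEED and -0.29 in C1-sgKMT2D). It was at 11.4 CPM above 0.5 and 155 CPM at or under it in hashtag 2, 13.6-fold lower (10.2 to 18.4). In C1-sgEED it was at 6.44 and 13.2 CPM, in C1-sgKMT2D at 7.43 and 9.34 CPM and in C1-sgControl at 28.0 CPM. Of these groups the lower range of hashtag 2 had the highest level. Along V it was at 164, 148, 96.8, 10.7 and 3.70 CPM. A VARS2 UMI was seen in 24.0% (21.4 to 26.8) of thinned cells at or under 0.5 and 0.911% above it, against 5.38% in C1-sgControl. VARS2 overlaps GTF2H4 on the same strand, so reads of the pair can be mixed.

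MPO, the myeloperoxidase of neutrophils, was singled out after its values were seen. It was at 4.55 CPM above 0.5 and 42.0 CPM at or under it in hashtag 2, at 0.248 and 6.44 CPM in C1-sgEED, at 0.875 and 1.503 CPM in C1-sgKMT2D and at 1.91 CPM in C1-sgControl. In thinned cells 6.47% (5.01 to 8.20) of the lower range had an MPO UMI, against 0.569% above 0.5 and 0.122% in C1-sgControl. The immune markers PTPRC and LYZ had 0 UMIs in these cells, as given above.

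**Figure D5:**
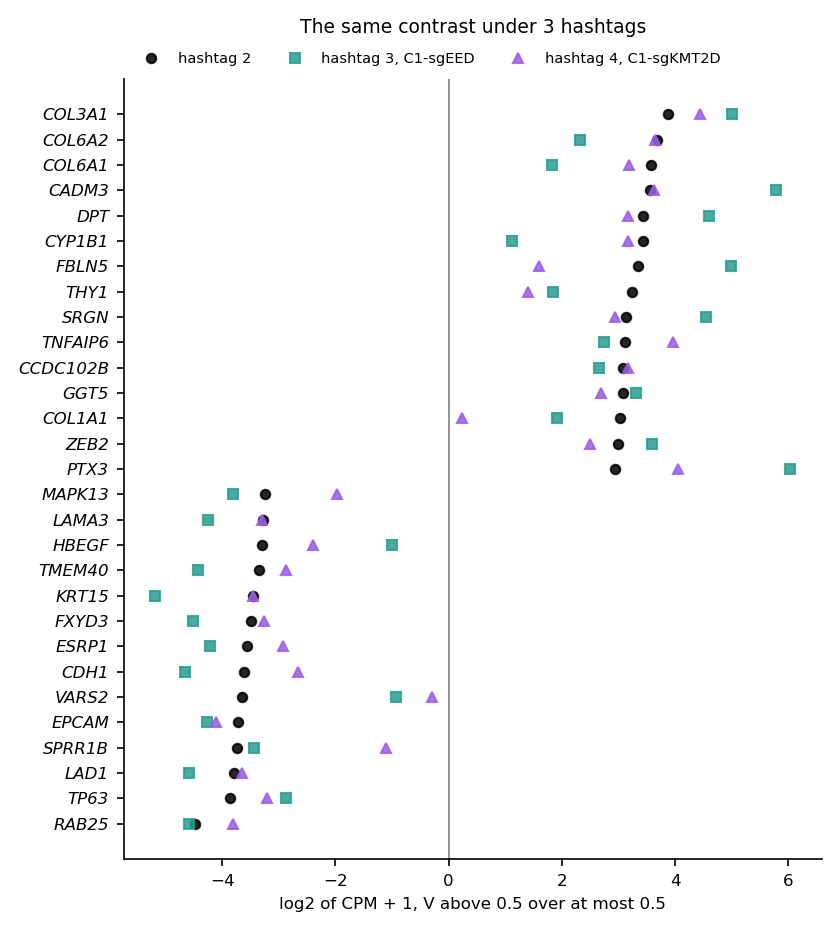
Log2 ratio of V above 0.5 over at most 0.5 (horizontal axis, CPM plus 1) for the same 29 genes of hashtag 2, in hashtag 2 (circles), C1-sgEED (squares) and C1-sgKMT2D (triangles). The points of each gene plotted lie on the same side of 0 under all 3 tags, and COL1A1 (0.24) and VARS2 (-0.29) lie near 0 in C1-sgKMT2D.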

How the data were processed

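Gene and hashtag UMIs were deposited as counts, whole numbers per barcode. Per the file headers they come from Cell Ranger 3.0.2, and per the submitters' processing notes the build is GRCh38. No source used here names the annotation release. In all there are 33694 genes and 4 hashtags, no barcode occurs more than once, and each group is 1 sample of 1 library. Of the 9193 barcodes past the cell filter, 912 (9.92%) had no single hashtag by the rule and were left out. Doublets within a hashtag were left in. Scrublet (scanpy 1.11.5) at an expected rate of 10% marked 906 (9.86%) of the barcodes kept, 50.5% of those without a single hashtag and 79 hashtag 2 cells. At a rate of 5% it marked 0 and had not worked. A 3' count reads transcript ends only.

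UMIs were summed per range and scaled to CPM with NumPy 2.4.6, SciPy 1.17.1 and pandas 2.3.3. The counting was tested on simulated data. Genes named are the 15 highest and 15 lowest log2 ratios where either range had at least 20 CPM, without mitochondrial genes, clone names and score genes, list members of at least 10 CPM and the 10 genes of highest variance over mean in each range. COL1A2, MGP, DCN, MPO and genes of opposite direction between hashtags are outside that rule or were singled out. Results for some genes that the rule names are not reported here. Of 30 gene lists, the symbol CD104 was not in the matrix. The ranges, members and lists were chosen with earlier results of these data known. Gene coordinates are GENCODE v29 on GRCh38, matched by gene identifier. Promoters are RefSeq GRCh38.p14, matched by symbol. Cell filters, hashtag rules, the score minimum, the bound, thinning, doublets, the total, the mean, the CPM minimum and the pseudocount were varied.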

Additional observations from a re-analysis of the deposited data

Results flagged for a closer look

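In 10 genes the contrast of hashtag 2 was at least 2-fold and went the other way, also by at least 2-fold, in C1-sgEED or C1-sgKMT2D. Each of the 10 reached 20 CPM in a range of hashtag 2. Of 4831 such genes there, 117 (2.42%) were at least 2-fold higher and 266 (5.51%) lower. NR4A2, PLD1 and SAA2 stayed under 20 CPM in both ranges of C1-sgEED. The differences between the hashtags were not tested, since each is 1 sample. Against C1-sgEED, 7 genes were higher above V 0.5 in hashtag 2 and lower in that line. They were the nuclear receptor NR4A2 (log2 ratio 2.09, 32.8 against 6.96 CPM, with 5.45 against 14.97 CPM in C1-sgEED), the phospholipase PLD1 (1.71), CXCL2 (1.30, 144 against 58.0 CPM, with 15.6 against 53.8 CPM), SAA2 (1.65), SAA1 (1.16, with 22.04 against 130.4 CPM in C1-sgEED), IL32 (1.02) and C3 (1.06, with 1.24 against 20.1 CPM in C1-sgEED). The transglutaminase TGM2 was lower in hashtag 2 (-1.02, 10.5 against 22.3 CPM) and higher in C1-sgEED (144 against 70.8 CPM).

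Against C1-sgKMT2D, the phosphatase DUSP2 (-1.04, 31.0 against 64.9 CPM) and TNFAIP3 (-1.17, 48.7 against 111 CPM) were lower in hashtag 2 and higher in that line, at 22.96 against 9.56 CPM and 108 against 43.5 CPM. IL32, TGM2, C3, DUSP2 and TNFAIP3 lie close to the 2-fold bound in hashtag 2. SAA1 and SAA2 are close copies, as are CXCL2 and its neighbours, so they are not independent genes. The ranges also differed in depth in each line, and its part in these values was not tested.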

How the results depend on the processing

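The share of cells above V 0.5 (47.6%) was 42.8% among cells of at least 1000 genes and at most 10% mitochondrial UMIs. It was 31.9% among cells of at least 5000 UMIs, an alternative chosen after seeing the data. Genes at least 2-fold higher (117) numbered 181 for V above 0.8 against at most 0.2, 189 with mitochondrial and ribosomal genes out of the total, 53 at a minimum of 50 CPM and 480 at 1 CPM. Genes at least 2-fold lower (266) numbered 127 at 50 CPM and 781 at 1 CPM, minimums that set how many genes are counted. For the other moves the cause was not tested. The hashtag rules, a score minimum of 10 UMIs, thinning to 2000 UMIs, leaving out Scrublet calls, means over cells and a pseudocount of 0.1 CPM kept the share within its interval, where it was recomputed, and both counts within 1.5 times.

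Of 133 named genes at least 2-fold apart, none changed direction in 1463 recomputed values, and 30 values of 13 genes fell under 2-fold: CYR61, PKP1, SLC2A1, C3, IL32, ADAMTS1, KRT81, SPINT1, SLPI, TNFAIP3, TYMS, PKP2 and IL11. Of 9 lists with a median past 2-fold, 3 fell under it in some alternative, namely the squamous, EGF receptor and acute-phase lists. No paired analysis was possible because the labels carry no replicates and no test was made. With 5 score UMIs V can take few values, and genes of few UMIs have wide intervals.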
